A study of Mus musculus with 8 samples.

Results

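Erythroid transcripts were examined in RNA of the basilar membrane, the cochlear strip on which the hearing epithelium sits. The 8 genes, all 8 found among the 78317 genes of the expression table, were chosen by name: the adult alpha globins Hba-a1 and Hba-a2, the adult beta globins Hbb-bs and Hbb-bt, the globin chaperone Ahsp (ENSMUSG00000121605), the heme synthesis enzyme Alas2, and the red cell membrane genes Slc4a1 and Epb42. The alpha globin genes (ENSMUSG00000069919 and ENSMUSG00000069917) and Slc4a1 (ENSMUSG00000006574) lie on chromosome 11, the beta globin genes (ENSMUSG00000052305 and ENSMUSG00000073940) on chromosome 7, Alas2 (ENSMUSG00000025270) on X and Epb42 (ENSMUSG00000023216) on chromosome 2. Tissue came from mice at postnatal day 6, in 4 libraries titled hete and 4 titled homo. The genotype label calls the first group WT and the second a Dnajc17 cKO, a conditional knockout, so it is not settled by the labels whether the hete animals carry a mutant allele. The promoter that drives the deletion, the deleted exons, the sex of the mice and whether a library pools animals are not stated in the labels. Nothing says that the libraries came from separate animals, so p-values measure the spread between libraries, which may be technical.

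Red blood cells carry oxygen on hemoglobin, a tetramer of alpha and beta globin chains that each hold a heme group. Mammalian red cells lose their nucleus before they mature, and reticulocytes, the youngest circulating red cells, still hold messenger RNA, most of it for globin. Dissected tissue can hold such cells in its vessels. Alas2 makes the first and rate-limiting step of heme synthesis in red cells, Ahsp binds free alpha globin and keeps it soluble, Slc4a1 is the band 3 anion exchanger, and Epb42 (protein 4.2) links band 3 to the skeleton under the membrane.

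The upstream sequences of 4 members are shown as background. Their part in the variation between libraries was not tested. RefSeq start sites on GRCm38.p6 gave windows of the 250 bases before the start for 6 of the 8 members (Hba-a1, Hba-a2, Hbb-bs, Hbb-bt, Alas2 and Epb42). Capitals mark matches on either strand to GATAA, the core of GATA factor sites, CACCC, the box bound by Krueppel-like factors, CCAAT and TATAA. Neighbouring matches can share bases, as the TATAA matches on the 2 strands of Alas2 do.
Hba-a1 (chr11:32283422-32283671, plus strand): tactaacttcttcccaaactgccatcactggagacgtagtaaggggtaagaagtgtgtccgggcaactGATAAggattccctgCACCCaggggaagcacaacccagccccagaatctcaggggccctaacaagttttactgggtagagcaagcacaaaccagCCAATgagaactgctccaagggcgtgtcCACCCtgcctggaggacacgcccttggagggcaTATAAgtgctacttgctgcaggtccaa
Hbb-bs (chr7:103827929-103828178, minus strand): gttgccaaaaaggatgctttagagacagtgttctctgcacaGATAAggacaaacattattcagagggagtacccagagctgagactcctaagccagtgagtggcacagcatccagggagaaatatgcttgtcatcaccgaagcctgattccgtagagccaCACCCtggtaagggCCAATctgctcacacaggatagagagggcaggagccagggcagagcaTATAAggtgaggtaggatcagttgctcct
Hbb-bt (chr7:103813924-103814173, minus strand): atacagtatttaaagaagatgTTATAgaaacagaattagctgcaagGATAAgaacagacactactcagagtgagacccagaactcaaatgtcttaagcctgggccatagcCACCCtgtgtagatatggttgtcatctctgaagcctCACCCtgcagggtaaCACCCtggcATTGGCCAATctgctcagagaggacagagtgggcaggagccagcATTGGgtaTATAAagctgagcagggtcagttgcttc
Alas2 (chrX:150547167-150547416, plus strand): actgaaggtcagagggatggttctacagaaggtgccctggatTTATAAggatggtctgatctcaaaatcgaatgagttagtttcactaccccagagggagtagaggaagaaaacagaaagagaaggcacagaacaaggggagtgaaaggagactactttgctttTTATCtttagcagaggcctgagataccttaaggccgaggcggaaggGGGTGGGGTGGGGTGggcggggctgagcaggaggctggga

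All 4 globin windows held all 4 motifs, which 0.968% of the 32851 RefSeq windows of that length did. That share is a description and not a test, and the windows of Hba-a1 and Hba-a2 are near copies of each other. Single motifs were common, at 22.6% of windows for GATAA, 52% for CACCC, 33.8% for CCAAT and 22.8% for TATAA. The TATAA match nearest the start began 27 bases before it in Hba-a1, 29 in Hbb-bs and 28 in Hbb-bt. Alas2 held 3 of the motifs, with no CCAAT, and Epb42 held 2, GATAA and TATAA. The table's windows of Hba-a1 and Hba-a2, which run on past the start to 300 bases, shared an unbroken run of 297 bases. The 250-base windows of Hbb-bs and Hbb-bt were 74.5% identical over 235 aligned bases. A match is a string of letters and not evidence of a bound site.

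Levels are given in TPM (transcripts per 1000000, scaled by transcript length), so they can be compared between genes. Between 28159 and 28969 genes were above 0 in a library, and mitochondrial transcripts took 8.69 to 10.4% of its TPM. Dnajc17, the targeted gene, ranged from 22.1 to 26.5 TPM in hete and from 18 to 31.1 in homo (0.07 on the log2 scale, SE 0.15, adjusted p = 0.969 by limma-trend), and a gene-level value of whole tissue does not check the labels. Hair cell markers were present, Ocm at a mean of 134 TPM and Pvalb, which neurons also express, at 69.7, as were the tectorial membrane gene Tectb at 4402.40 and the neuronal gene Syt1 at 25.5. TPM keeps no record of depth, so no counting interval could be given.

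Hbb-bs was the most abundant single erythroid gene in every library, although summed alpha globin exceeded summed beta globin in all but hete replicate 4. Hbb-bs, the more abundant adult beta globin gene here, was measured in the hete libraries, replicates 1 to 4, at 1636.13, 2188.22, 1780.09 and 1100.02 TPM. The homo libraries, in the same order, had 1412.35, 1253.43, 1359.62 and 1637.09. It ranked between 42 and 112 among all genes of a library. The 4 homo values all lay inside the hete range, whose highest value was hete replicate 2 and whose lowest was hete replicate 4. Hbb-bt, the less abundant adult beta globin gene, had 256.89, 332.64, 265.35 and 174.34 TPM in hete and 190.46, 203.84, 223.34 and 257.24 in homo. It showed the same highest and lowest library. Hbb-bs supplied 85.9 to 88.1% of the summed beta globin TPM, so the split between the 2 beta genes hardly varied.

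Alpha globin was spread over 2 nearly identical genes. In replicate order, Hba-a1 had 868.17, 1172.45, 804.34 and 498.00 TPM in hete and 651.69, 852.14, 878.39 and 678.93 in homo. Hba-a2 had 1293.18, 1618.78, 1696.62 and 685.94 in hete and 1382.50, 794.39, 823.22 and 1490.49 in homo. Both groups overlapped for both genes, and hete replicate 4 was again the lowest. Homo replicates 2 and 3 were the only libraries in which Hba-a1 exceeded Hba-a2.

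The division of alpha globin between the 2 genes shifted between libraries in a way that the beta division did not. Hba-a2 made up 48.2 and 48.4% of the alpha TPM in homo replicates 2 and 3, 57.9 to 59.8% in hete replicates 1, 2 and 4, and 67.8 to 68.7% in hete replicate 3 and homo replicates 1 and 4. The first GENCODE M21 transcripts of Hba-a1 and Hba-a2 matched at 537 of 538 aligned bases (99.8%), with an unbroken shared run of 415 bases. Those of Hbb-bs and Hbb-bt matched at 93.3% of 616 aligned bases, although their longest shared run was 430 bases. How reads that fit both copies were assigned is not stated in the labels or file headers, so the single values of Hba-a1 and Hba-a2 are uncertain. For reads from their shared run, the same limit holds for Hbb-bs and Hbb-bt and for the split between them. If reads that fit both copies were kept, the alpha sum depends on their division only through the transcript lengths of 699 and 554 bases that scale each value. Whether such reads were kept is not stated, so the alpha sum and its ratio to beta carry both limits. Summed alpha globin was 1183.94 to 2791.23 TPM and summed beta globin 1274.36 to 2520.86, and the ratio of alpha to beta stayed between 0.929 (hete replicate 4) and 1.27 (homo replicate 1).

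**Figure D1:**
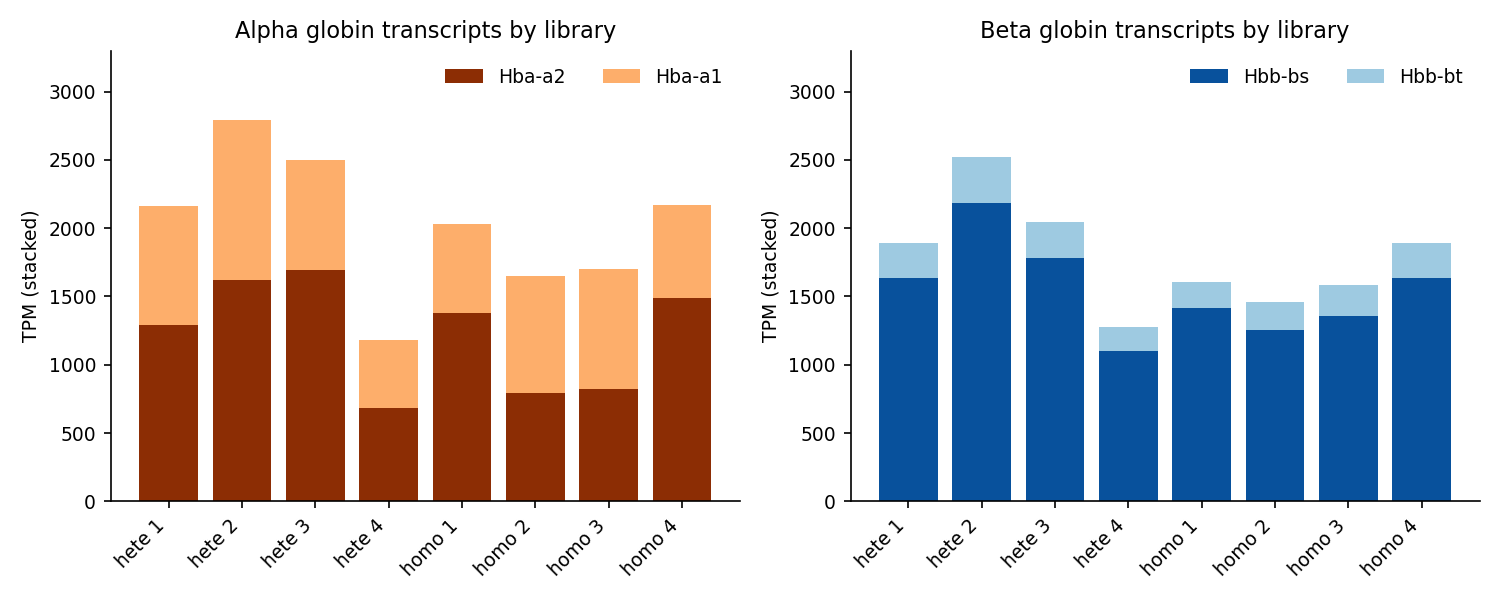
Stacked TPM of the 2 alpha globin genes (left) and the 2 beta globin genes (right) in each library, with libraries on the horizontal axis. Total height is lowest in hete replicate 4 and highest in hete replicate 2 for both chains, and the Hba-a2 part of the alpha bars ranges from 48.2 to 68.7% while the Hbb-bs part of the beta bars stays between 85.9 and 88.1%.

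The other members were far less abundant than globin. In replicate order, Ahsp had 5.41, 5.11, 3.84 and 4.17 TPM in hete and 2.16, 7.37, 2.92 and 7.65 in homo, where replicates 2 and 4 were the highest of all libraries and replicates 1 and 3 the lowest. Alas2 had 8.42, 17.1, 14.1 and 8.3 TPM in hete and 11, 8.86, 10.9 and 11.4 in homo, all 4 homo values lying inside the hete range. Relative to globin, Alas2 stood at 2.08 to 3.38 TPM for every 1000 TPM of the 4 globins, while Ahsp ranged more widely, from 0.594 to 2.37.

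Both membrane genes were under 1 TPM in every library. Slc4a1 had 0.55, 0.57, 0.52 and 0.22 TPM in hete and 0.5, 0.55, 0.63 and 0.78 in homo. Epb42, which lies on chromosome 2 as Dnajc17 does, had 0.33, 0.52, 0.31 and 0.32 in hete and 0.54, 0.17, 0.43 and 0.85 in homo. The groups overlapped for both, and homo replicate 4 was the highest library for each. Per 1000 TPM of globin, the hete libraries had 0.0895 to 0.136 of Slc4a1 and the homo libraries 0.137 to 0.192. For Epb42 the same ratio overlapped, as the homo range, 0.0548 to 0.209, held all hete values, 0.0682 to 0.13. Both ratios are a description, with no test and no background share, of values near the lower end of the scale.

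By mean level the order was Hbb-bs (1545.87 TPM over 8 libraries), Hba-a2 (1223.14), Hba-a1 (801), Hbb-bt (238), Alas2 (11.3), Ahsp (4.83), Slc4a1 (0.54) and Epb42 (0.434). Each gene exceeded the next in 8 of 8 libraries, except that Hba-a2 exceeded Hba-a1 in 6 and Slc4a1 exceeded Epb42 in 5. The ranges of Hbb-bs and Hba-a2 overlapped across libraries, although Hbb-bs was higher within each one. Together the 8 genes took 0.411% ± 0.121 (SD, n = 4) of the TPM in hete and 0.354% ± 0.0423 (SD, n = 4) in homo. The highest share, 0.534% in hete replicate 2, was 2.16 times the lowest, 0.247% in hete replicate 4, and the homo shares of 0.312 to 0.408% lay between them. Globin made up 99.5 to 99.6% of the TPM of the 8 genes. Single values of homo and hete overlapped for all 8 genes, where 3.99% of the 17811 tested genes had groups that did not overlap.

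**Figure D2:**
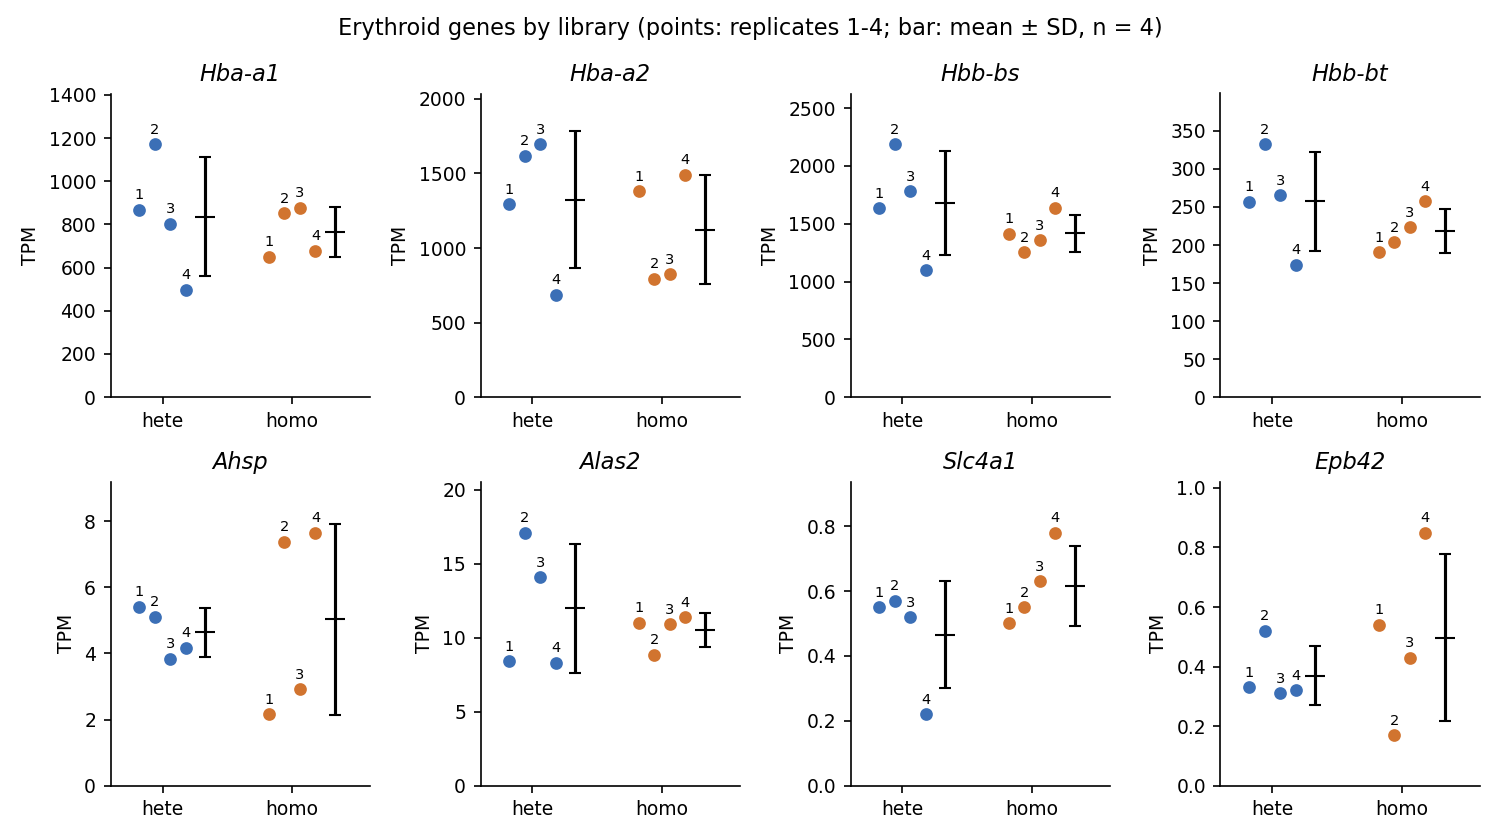
TPM (vertical axis, from 0) of each erythroid gene in hete and homo libraries. Numbered points are replicates 1 to 4 and the bar beside them is the mean ± SD (n = 4). The groups overlap in all 8 panels, and for the 4 globins and Alas2 every homo point lies inside the hete range.

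The comparison of homo with hete asks whether erythroid transcripts differ between the libraries labelled Dnajc17 cKO and those labelled WT, whose Dnajc17 levels overlapped as given above. None of the 6 members that passed the filter of a mean of at least 1 TPM changed by limma-trend on log2(TPM + 1), and 0 of 6 had an unadjusted p under 0.05, as 6.05% of all tested genes did. Over all 17811 tested genes 2 were called, which is 0.0112%. Hbb-bs averaged 1676.11 ± 450 TPM over the hete libraries and 1415.62 ± 162 over the homo libraries (SD, n = 4 each), a log2 fold change of -0.21 (SE 0.19, 95% interval -0.64 to 0.22; adjusted p = 0.909). On a linear scale that interval runs from 0.644 to 1.16 times hete, so differences inside it could not be told from none here. Hbb-bt was at -0.21 (SE 0.18; adjusted p = 0.906), Hba-a2 at -0.21 (SE 0.35), Hba-a1 at -0.07 (SE 0.24), Alas2 at -0.12 (SE 0.21) and Ahsp at -0.03 (SE 0.33), with adjusted p of 0.955, 0.979, 0.962 and 0.997. The linear means of Ahsp, 4.63 ± 0.747 TPM in hete and 5.03 ± 2.89 in homo, stood in the other order. Slc4a1 and Epb42 were not tested at that filter. In the fit with no filter they stood at 0.14 (SE 0.14; limma-trend, adjusted p = 0.816) and 0.11 (SE 0.16; adjusted p = 0.874).

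All 6 tested members had a negative log2 fold change, with a median of -0.16, where 43.7% of all tested genes were negative and the median was 0.02. Several of the 6 varied together between libraries, so their signs are not separate observations. Single hete libraries moved these values. Without hete replicate 4, Hbb-bs was at -0.40 (unadjusted p = 0.00985; limma-trend, adjusted p = 0.708), Hbb-bt at -0.38 (adjusted p = 0.737), Hba-a2 at -0.50 and Hba-a1 at -0.30, and the median of the 6 was -0.34. Without hete replicate 2, Hbb-bs, Hbb-bt and Hba-a2 were at -0.07, -0.07 and -0.09, and 3 of the 6 were positive (median -0.03). In bulk tissue, fewer red cells in a sample and less RNA per red cell cannot be told apart, and whether the amount of blood kept at dissection differed between libraries was not tested. Among markers of the tissue's own cells, 0 of 11 tested hair cell genes and 0 of 10 supporting cell and tectorial membrane genes were called. Of these, 2 and 3 had an unadjusted limma-trend p under 0.05, beside 6.05% of all tested genes. Gene by gene, groups did not overlap for 0 of the 11 and 3 of the 10, beside 3.99% of all tested genes. Hair cell markers summed to 303 to 455 TPM in hete and 199 to 302 in homo, so the sums nearly met. The difference came mostly through Ocm (177 ± 73.7 and 90.2 ± 26.4 TPM, SD, n = 4 each). Supporting cell and tectorial markers summed to 5488.92 to 6114.43 and 6404.67 to 6872.64, mostly through Tectb and Tecta. Such sums have no background share. Sums overlapped for spiral ganglion neuron markers (329 to 471 and 387 to 596 TPM) and otic capsule bone markers (810 to 1444.34 and 919 to 1430.54). The part of these cell markers in the erythroid values was not tested.

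**Figure D3:**
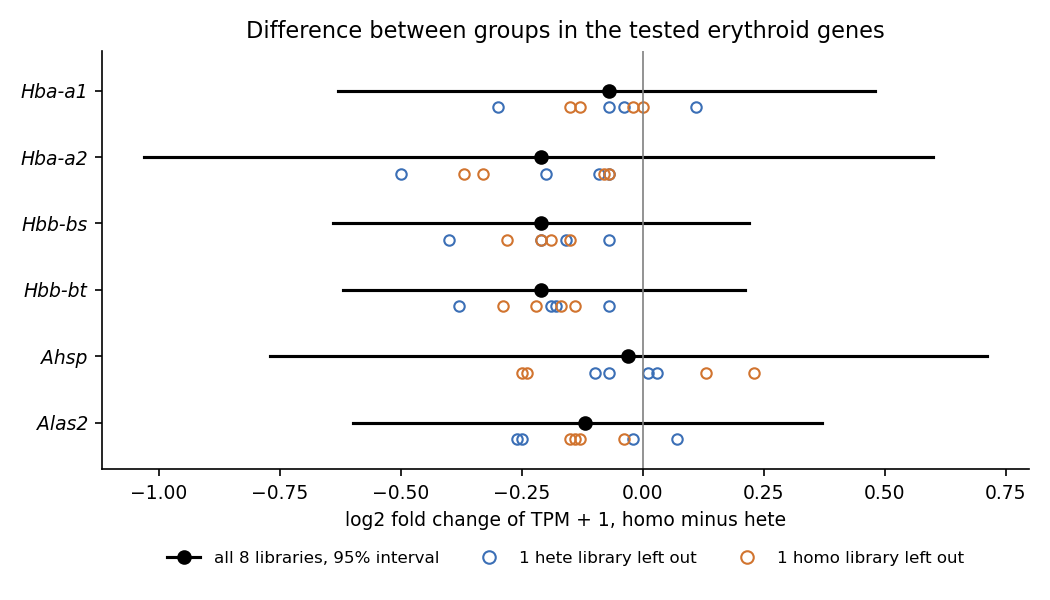
Log2 fold change of TPM + 1, homo minus hete (horizontal axis), for the 6 tested erythroid genes. Filled points with lines are the fit of all 8 libraries with its 95% interval, and open circles below are fits without 1 hete or 1 homo library. All intervals include 0, and for Hbb-bs the open circles run from -0.40 to -0.07.

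How far the other erythroid genes followed Hbb-bs between libraries was measured on log2(TPM + 1) over the 8 libraries, with 23 relations in all (7 members and 16 list means) and two-sided exact permutation tests adjusted over the 23. Hbb-bt followed it closely (r = 0.96, exact permutation p = 0.000818, adjusted p = 0.0188; rho = 0.93, p = 0.00223, adjusted p = 0.0257). So did Hba-a2 (r = 0.88, exact permutation p = 0.00191, adjusted p = 0.022; rho = 0.95, p = 0.00114, adjusted p = 0.0257). Without hete replicates 2 and 4, the libraries farthest from the median of Hbb-bs, r was 0.86 and 0.88 over 6 libraries, with adjusted p of 0.415 and 0.224 in the same exact permutation test. Alas2 had r = 0.82 (exact permutation p = 0.0136, adjusted p = 0.104; rho = 0.86, p = 0.0107) and 0.50 without those libraries. Hba-a1 had r = 0.72 (exact permutation p = 0.0441, adjusted p = 0.254; rho = 0.43, p = 0.299) and -0.16 without them, so that r rests on those libraries. How shared reads were divided between gene copies can move the r of Hba-a1, Hba-a2 and Hbb-bt, and its part was not tested. The relation of summed alpha globin with Hbb-bs was not tested either.

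For the membrane genes and the chaperone the relation with Hbb-bs did not pass the test. Slc4a1 had r = 0.53 (exact permutation p = 0.164, adjusted p = 0.568; rho = 0.40, p = 0.334) and 0.13 without hete replicates 2 and 4, Epb42 had r = 0.39 (p = 0.346, adjusted p = 0.722; rho = 0.38, p = 0.36) and 0.31, and Ahsp had r = 0.15 (p = 0.715, adjusted p = 0.911; rho = 0.12, p = 0.793) and 0.08. With values centred within each group and the exact test permuting libraries within groups, r was 0.95 for Hbb-bt, 0.88 for Hba-a2, 0.82 for Alas2 and 0.74 for Hba-a1, with adjusted p of 0.13, 0.12, 0.13 and 0.491. It was 0.88 for Slc4a1 (adjusted p = 0.13), 0.55 for Epb42 and 0.15 for Ahsp. Groups of 4 were too small for a correlation within each.

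**Figure D4:**
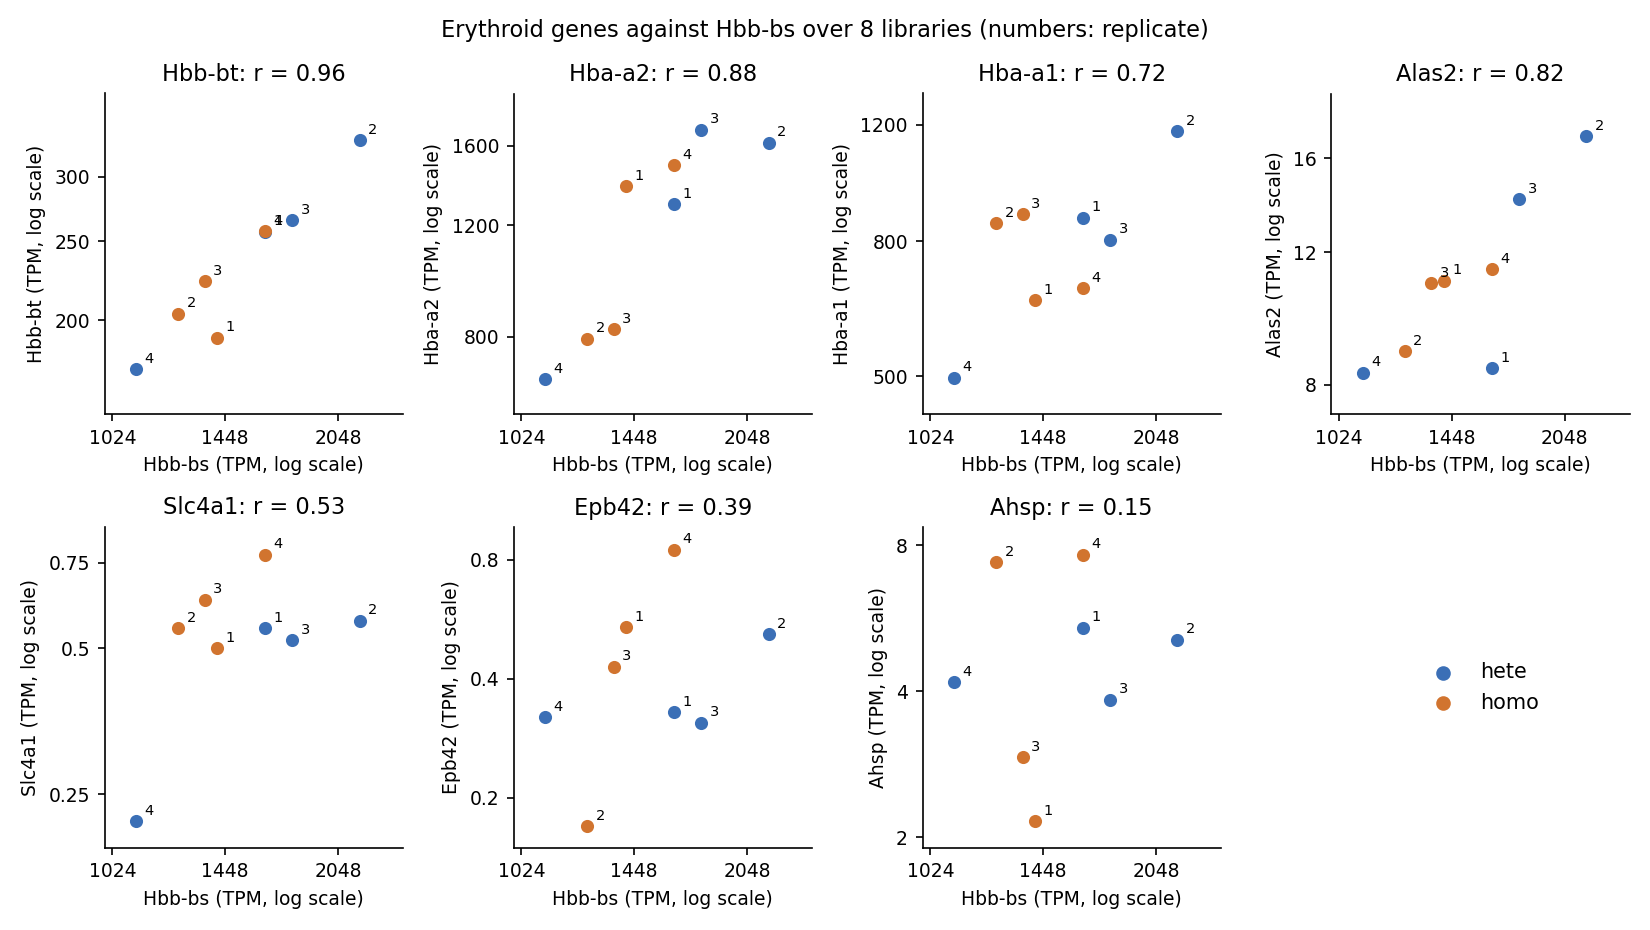
TPM of the other 7 erythroid genes (vertical axes, log scale) against Hbb-bs (horizontal axes, log scale), 1 point per library numbered by replicate; r is Pearson's on log2(TPM + 1). Hbb-bt (r = 0.96) and Hba-a2 (r = 0.88) lie near a line, with hete replicate 4 at the low end, while Ahsp (r = 0.15) is scattered.

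No list mean of another cell type or pathway was related to Hbb-bs at an adjusted p under 0.05 in the exact permutation tests. Among blood and vessel lists, lymphocyte markers had r = 0.49 (rho = 0.64), endothelial 0.13 (0.21), pericyte and smooth muscle -0.45 (-0.48), macrophage -0.08 (-0.19), platelet -0.09 (-0.21) and neutrophil markers -0.24 (-0.02). The exact permutation p of r was 0.222, 0.752, 0.271, 0.853, 0.827 and 0.547 in that order and that of rho 0.0962, 0.619, 0.243, 0.665, 0.619 and 0.977, with the smallest adjusted p 0.568 for r and 0.553 for rho. Without hete replicates 2 and 4 r was 0.47, 0.14, -0.60, -0.77, -0.01 and -0.58. The macrophage value there had an exact permutation p of 0.0403 (adjusted p = 0.415). Among lists of erythroid genes, transcription factors had r = -0.53 (rho = -0.24), and membrane and skeleton genes -0.49 (-0.40). Heme synthesis and handling had -0.23 (-0.31), and embryonic and other globins 0.51 (0.52). The exact permutation p of r was 0.169, 0.216, 0.591 and 0.199 in that order. Without the same 2 libraries r was -0.00, -0.22, -0.40 and 0.66. Over 8 libraries a relation of moderate strength could be missed. The 6 named genes outside the members whose profile was most like the mean of the 4 globins were Abhd14a (r = 0.94 over 8 libraries), Plac9 (0.93), Washc1 (0.93), Tmem97 (0.92), Lsm2 (0.91) and Snhg12 (0.91). They are the top of the tested genes once the members and unnamed gene models are left out, and their r has no test.

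Embryonic globins were listed at 0. Of 12 further globin genes listed, 10 were in the table. The embryonic genes Hbb-y, Hbb-bh1 and Hba-x, which serve red cells of the yolk sac, were listed at 0 in all 8 libraries, as were Hbb-bh2 and the pseudogene Hbb-bh0, a set named after its values were seen. Myoglobin (Mb, 2.03 TPM) and cytoglobin (Cygb, 9.36), which muscle and fibroblasts use, were the only 2 that passed the filter. None of the erythroid transcription factors changed, 0 of 11 tested, 0 of them with an unadjusted p under 0.05 (median log2 fold change 0.04, smallest adjusted p = 0.87). Ldb1 (161 TPM), Zfpm1 (31.7), Lmo2 (29.1) and Zbtb7a (22.4) led that list, and other cells express them too. Of the other 9, Foxo3 (17.1), Sox6 (8.18), Nfe2 (7.39), Bcl11a (4.24), Myb (2.58), Klf1 (1.23) also passed the filter, as did Tal1, which ranged from 0.86 to 1.37 TPM. Gata1 was above 0 in 3 of 8 libraries, with at most 0.74 TPM, and Gfi1b in 2, with at most 0.07. These 9 were added to the named genes after their values were seen.

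Of 22 red cell membrane and skeleton genes, 13 were tested and 0 changed (0 with an unadjusted p under 0.05; 9 higher and 4 lower, median 0.04). The most abundant were Bcam, a laminin receptor, at 182 TPM and Tmod1, an actin pointed-end capping protein, at 163, both also made outside the blood. Glycophorin C (Gypc) stood at 20.2 TPM with a log2 fold change of 0.18 (SE 0.12; adjusted p = 0.874). Rhag, the Rh-associated glycoprotein, named after its values were seen, reached at most 0.07 TPM. List sums were 641 to 843 TPM in hete and 665 to 712 in homo.

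Of 30 late erythroid and reticulocyte genes, 24 were tested and 0 changed, 3 with an unadjusted p under 0.05, beside 6.05% of all tested genes (15 higher and 9 lower, median 0.04). Prdx2, a peroxidase abundant in red cells and many other cells, had 406 TPM and Cd24a 231. The smallest p belonged to Bnip3l, which removes mitochondria from maturing red cells, whose hete mean was 133 ± 7.68 TPM and homo mean 156 ± 15.3 (SD, n = 4 each; 0.22, SE 0.08; limma-trend, adjusted p = 0.735). Ube2l6, an ISG15-conjugating enzyme, was at -0.23 (SE 0.09; adjusted p = 0.76). No relation of this list's mean with Hbb-bs was detected (r = 0.01, exact permutation p = 0.986; rho = 0.05, p = 0.935).

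Heme synthesis and handling genes, which nearly all cells use, were all measurable: 20 of 20 were tested and 0 changed, 1 with an unadjusted p under 0.05 (9 higher and 11 lower, median -0.01). Alas1, the isozyme of Alas2 outside red cells, had 113 TPM, beside 11.3 for Alas2, and Tmem14c, a mitochondrial carrier of heme precursors, 112. Ppox, which makes the next-to-last step, had a hete mean of 46.3 ± 7.61 TPM and a homo mean of 56.5 ± 6.43 (SD, n = 4 each; 0.29, SE 0.12; limma-trend, adjusted p = 0.81). Of 12 tested genes of heme and iron recycling 0 changed, 0 with an unadjusted p under 0.05, with the ferritin chains Ftl1 at 1885.80 TPM and Fth1 at 1655.46.

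Markers of other blood cells had far lower sums than the globins. Neutrophil markers summed to 20.7 to 34.8 TPM in hete and 18 to 96.4 in homo. Of 14, 6 passed the filter and 0 changed, 3 with an unadjusted p under 0.05, beside 6.05% of all tested genes (5 higher and 1 lower, median 0.61), and S100a9 had a hete mean of 1.95 ± 0.878 TPM and a homo mean of 12.3 ± 13.8 (SD, n = 4 each; 1.77, SE 0.57; limma-trend, adjusted p = 0.727). Platelet markers summed to 62.9 to 67.9 TPM in hete and 61.3 to 76.3 in homo, mostly Pf4 (51 TPM), which macrophages can also make, while Ppbp, another platelet chemokine named after its values were seen, had 0.441. Lymphocyte markers summed to 74.8 to 105 TPM in hete and 49.7 to 110 in homo, nearly all of it Ighm (74.3 TPM). Endothelial markers summed to 401 to 481 and 395 to 489 TPM, and macrophage markers to 392 to 434 and 387 to 466. Of the tested genes in the platelet (4), lymphocyte (4), endothelial (12) and macrophage (12) lists 0 changed by limma-trend, and 0, 0, 0 and 1 had an unadjusted p under 0.05.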

How the data were processed

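Polyadenylated RNA was prepared from 1 µg of total RNA per library with a stranded kit, per the labels' protocols. The authors deposited a table of TPM values for 78317 genes in 8 libraries, each summing to about 1000000. Per the submitters' processing notes the tools were HISAT2, StringTie, RSEM, fastp and DESeq2, and the build was GRCm39; no version or role is listed. Libraries were assigned to groups by title. The 17811 genes averaging 1 TPM or more were fitted as log2(TPM + 1) with limma 3.58.1 in R 4.3.3 (eBayes with trend and robust, group as the only term) and adjusted by Benjamini-Hochberg. Calls needed an adjusted p under 0.05. Fold changes are on the log2(TPM + 1) scale, which understates those of low genes. The fit was tested on simulated data in which genes varied independently. Several members varied together here, which that test does not cover.

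The members and the 16 gene lists were chosen with earlier results of these data known. Named from each list were the 2 highest genes and the 2 with the smallest p. Added to them were the 6 genes most like the globins, with unnamed gene models left out. Other genes are marked as chosen after their values were seen. Windows came from RefSeq (GRCm38.p6) and transcripts from GENCODE M21, on a build other than the authors', so no other coordinates are given. Alternatives were other filters, scalings, pseudocounts, a replicate block and each library left out. Figures used matplotlib 3.10.9.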

Additional observations from a re-analysis of the deposited data

Results flagged for a closer look

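In hete replicate 4, Slc4a1 stood apart from the other hete libraries at 0.22 TPM, against 0.52 to 0.57. That library also had the lowest Hbb-bs, Hbb-bt, Hba-a1, Hba-a2 and Alas2. In hete replicate 2, Epb42 stood apart at 0.52 TPM, against 0.31 to 0.33, and that library had the highest Hbb-bs, Hbb-bt, Hba-a1 and Alas2. Both genes are near the lower end of the scale, and depth is unknown. These 2 came from 32 groups of 4 values examined, and chance marks about 1 group in 20.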

How the results depend on the processing

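The negative log2 fold changes of the 6 tested members kept their sign under quantile normalization, both other filters, a pseudocount of 0.1, scaling without the erythroid genes, eBayes without the robust option and the replicate block, and none was called in any fit. Leaving out single libraries gave -0.40 to -0.07 for Hbb-bs, -0.38 to -0.07 for Hbb-bt and -0.50 to -0.07 for Hba-a2, and reached positive values for Hba-a1 (-0.30 to 0.11), Alas2 (-0.26 to 0.07) and Ahsp (-0.25 to 0.23). Hba-a1 at 0.11 and Alas2 at 0.07 were positive without hete replicate 2, and Ahsp at 0.03, 0.01, 0.23 and 0.13 without hete replicates 1 and 2 and homo replicates 1 and 3; the cause was not tested. The 2 genes called over all tested genes became 1 with no filter and 1 with the replicate block, and 1 to 5 with a library left out. No pairing of samples by replicate number was seen: deviations of same-numbered libraries correlated at -0.08, -0.03, 0.05 and 0.01, and the block changed no call of a member. A weak pairing could be missed by such correlations. The relation of Hbb-bs with Hba-a2 (0.88 and 0.88) and Hbb-bt (0.86 and 0.95) lost its adjusted p under 0.05 without the 2 farthest libraries and when centred within groups, where fewer libraries or permutations enter, and that with Hba-a1 turned to -0.16 without them. Of the list means, the late erythroid genes turned to -0.32 and the hair cell markers to 0.59 without the 2 farthest libraries, and the supporting cell markers to 0.07 when centred. Depth per library is unknown, which limits Slc4a1 and Epb42 most.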
